A study of Drosophila melanogaster with 6 samples.

Results

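The regions described here are the stretches of 5 to 20 kb that were enriched for ubiquitylated histone H2B (H2Bub) on 3 large autosomal arms of *Drosophila melanogaster*. They were chosen from the combined list by position and width. A region had to lie on 2L, 3L or 3R, outside the 2 Mb nearest the centromere, and be at least 5 kb and under 20 kb wide. The rule found 992 of the 5802 combined regions. Positions are given on FlyBase release 5, as named in the file headers. The chromatin came from wild-type Oregon-R embryos aged 14 to 16 h and was precipitated with the antibody NRO3 in 3 ChIP samples, each with an input. All samples share this strain, genotype and age, so the comparisons are between replicates, widths and positions. Whether each replicate had its own embryo collection is not stated in the labels, so the p-values given cover sample-to-sample spread alone, part or all of which may be technical. Whole embryos mix many cell types, so the share of cells that carry the mark at a region is not known from these lists.

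H2B is monoubiquitylated by the ligase Bre1 acting with a Rad6-type conjugating enzyme, and the Paf1 complex links this reaction to elongating RNA polymerase II. The mark is therefore known mainly from the bodies of transcribed genes, where it lies over a stretch of chromatin and not at a point. It is removed by deubiquitylating enzymes, among them the Nonstop module of the SAGA coactivator complex. Late embryos are differentiating muscle, nerve, gut and epidermis, each with its own set of active genes. Whether these regions have the extent of genes was not checked, because no gene model of their genome release was used here.

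The 992 regions made up 30.5% of the 3253 combined regions in the same windows and held 42.2% of the bases called there. They totalled 9.22 Mb, or 13.3% of the 69.5 Mb of sequence. The arm 3R had 374 of them, 3L had 333 and 2L had 285, or 14.4, 14.8 and 13.6 per Mb. The median width was 8010 bp, with the middle 50% of regions between 6273 and 11343 bp. Narrower regions dominated within the range. There were 440 regions of 5 to 7.5 kb, 220 of 7.5 to 10 kb, 218 of 10 to 15 kb and 114 of 15 to 20 kb. Just inside the limits, the narrowest member was 5005 bp, on 2L from 5266651 to 5271655, and scored 0.587. The widest was 19973 bp, on 3R from 6137829 to 6157801, and scored 1.01. Just outside lay a region of 4999 bp on 3R from 11076774 with a score of 0.779 and one of 20055 bp on 3L from 15548998 with a score of 1.19.

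Wider regions tended to have higher scores, with much scatter. The score is the authors' value for a region and is compared here only within a list. The 992 regions ran from 0.341 to 2.66, with a median of 0.902. The median was 0.798 at 5 to 7.5 kb, 0.906 at 7.5 to 10 kb, 0.976 at 10 to 15 kb and 1.16 at 15 to 20 kb. Spearman's rho between width and score was 0.293 across the 992 regions, which share libraries and are not independent. Among the regions matched 1 to 1 in all replicates, the 4 width groups kept this order in each replicate list. These regions numbered 269, 97, 74 and 38 from the narrowest group to the widest. In that order, the median score of the matching region was 0.867, 1.02, 1.09 and 1.36 in replicate 1. It was 1.12, 1.34, 1.49 and 1.84 in replicate 2 and 1.06, 1.22, 1.31 and 1.51 in replicate 3. Matching itself moved with score and width. It held for 18.5% of the 248 lowest-scoring regions and 76.6% of the 248 highest-scoring. By width it held for 61.1% at 5 to 7.5 kb and 33.3% at 15 to 20 kb. What this filter adds to the rise in the replicate lists was not tested. The median over all 5 to 20 kb regions was 0.902, against 0.343 for regions under 2 kb, 0.528 for those of 2 to 5 kb and 1.35 for those of 20 kb and over. Width chose these groups and moves with score, so that comparison is a description. By arm, the medians were 0.940 on 2L, 0.905 on 3L and 0.876 on 3R.

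**Figure D1:**
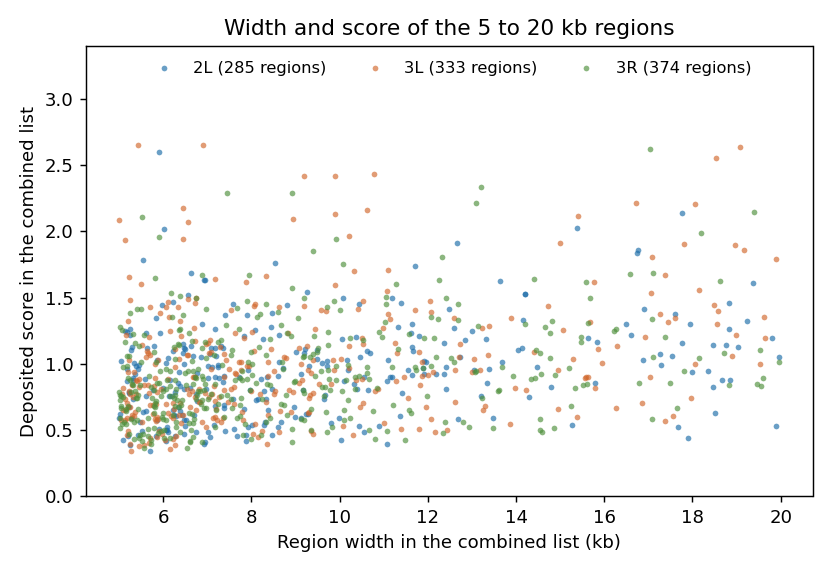
Each point is 1 of the 992 regions, with its width in kb on the horizontal axis and its deposited score in the combined list on the vertical axis, coloured by arm. Points crowd at narrow widths and low scores, while scores above 2.60 occur near both ends of the width range.

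High scores were found at both ends of the width range. The 5 highest-scoring regions were 3L from 11244543 to 11249968 (score 2.66), 3L from 748543 to 755442 (2.65), 3L from 10850170 to 10869240 (2.63), 3R from 22950292 to 22967337 (2.62) and 2L from 14489993 to 14495905 (2.60). In that order, their widths were 5426, 6900, 19071, 17046 and 5913 bp. Each was a single region in every replicate. In the list of replicate 1 their scores were 2.30, 2.39, 2.30, 2.31 and 2.44, in that order. In replicate 2 they were 2.94, 2.97, 2.87, 2.89 and 2.86, and in replicate 3 they were 2.25, 2.41, 2.48, 2.46 and 2.44. Within each list these 5 lay in a narrow band, near the maxima of 2.44, 2.97 and 2.48 found among the 478 regions matched 1 to 1 in replicates 1, 2 and 3.

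The rank of a region by score was much the same from replicate to replicate. Over those 478 regions, Spearman's rho between scores was 0.932 for replicates 1 and 2, 0.853 for replicates 1 and 3 and 0.856 for replicates 2 and 3. Against the combined score it was 0.963, 0.982 and 0.859 for replicates 1, 2 and 3. Widths ranked alike as well, with rho of 0.905, 0.869 and 0.903 for the pairs in the same order. These points share their libraries, the 478 were kept because their calls matched, and no p was computed.

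Nearly every 5 to 20 kb region was overlapped by at least 1 bp in all replicate lists. With 50% reciprocal overlap the share was 69.1%, and many regions were called in pieces. Of the 992, 951 (95.9%) were overlapped in all 3 replicate lists, against a background of 63.4% over the 3253 regions of all widths. Overlap of 1 bp is easier for a wide region, and how the combined list was made from the libraries is not given, so nothing is read from that gap. Replicate 1 overlapped 959 of the regions, replicate 2 overlapped 991 and replicate 3 overlapped 973. The 41 regions that lacked a replicate were narrower and weaker, at a median of 6224 bp and 0.443, and none scored above 0.906. For the other 951 the medians were 8208 bp and 0.921. Replicate 1 was the only one missing at 22 regions, replicate 3 at 8, and replicates 1 and 3 both at 10.

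A single region was in no replicate list. It lay on 3R from 27699353 to 27704907, near the end of the arm, was 5555 bp wide and scored 0.362. It was among the 5 lowest scores. Of the other four, 3 were called in replicate 2 alone, on 3L from 8059223 to 8064489 (score 0.345), on 3L from 19946277 to 19952430 (0.354) and on 3R from 10896531 to 10903067 (0.365). Replicate 2 covered 70.5%, 77.4% and 99.5% of them. The lowest score, 0.341, belonged to 2L from 8305519 to 8311227, which replicates 1, 2 and 3 covered over 25.9%, 73.0% and 77.7%. The missing calls at these low-scoring regions were thus mostly in replicates 1 and 3.

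Counted in bases, replicates 1, 2 and 3 covered 80.6%, 93.0% and 85.7% of the 5 to 20 kb regions, with a mean of 86.4% ± 6.22 (SD, n = 3). Coverage averaged 29.3% ± 10.2 under 2 kb, 74.4% ± 8.99 at 2 to 5 kb and 95.7% ± 2.81 at 20 kb and over. Within the range, the widest group was covered more than the narrowest in every replicate. At 5 to 7.5 kb it was 74.3%, 90.4% and 81.1% in replicates 1, 2 and 3, and at 15 to 20 kb it was 87.5%, 95.8% and 90.5%. All 3 replicates called 72.8% of their bases, 2 of them called a further 16.3%, 1 called 8.12%, and 2.72% were called by no replicate.

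Fewer than 1 in 2 regions had the same simple form in every replicate. A 1 to 1 match, with a single replicate region that touched no other combined region, was found for 649 regions in replicate 1, 776 in replicate 2 and 665 in replicate 3. It held in all replicates for 478 regions, or 48.2%, against a background of 40.7% over regions of all widths. The share was 6.33% under 2 kb, where 62 of 869 regions were called in all replicates, 60.6% at 2 to 5 kb and 34.3% at 20 kb and over. The value under 2 kb and the background again include combined regions narrower than any replicate region. The share of the 5 to 20 kb regions was 58.6% without replicate 1, 51.1% without replicate 2 and 58.8% without replicate 3. Leaving out a list can only keep or raise this share.

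Splitting was the main departure. Replicates 1, 2 and 3 held 2 or more regions inside 306, 206 and 261 of the 992, or 30.8%, 20.8% and 26.3%. Joining was rarer, and 4, 9 and 47 of them were part of a replicate region that also held a neighbour. Replicate 3 thus joined most often. Split regions were wider than unsplit ones and scored lower, although wider regions scored higher over all 992. The median width of split regions against those called as 1 was 10006 against 7315 bp in replicate 1, 9121 against 7761 bp in replicate 2 and 10232 against 7438 bp in replicate 3. The median combined score was 0.775 against 1.01, 0.646 against 0.966 and 0.792 against 0.972.

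**Figure D2:**
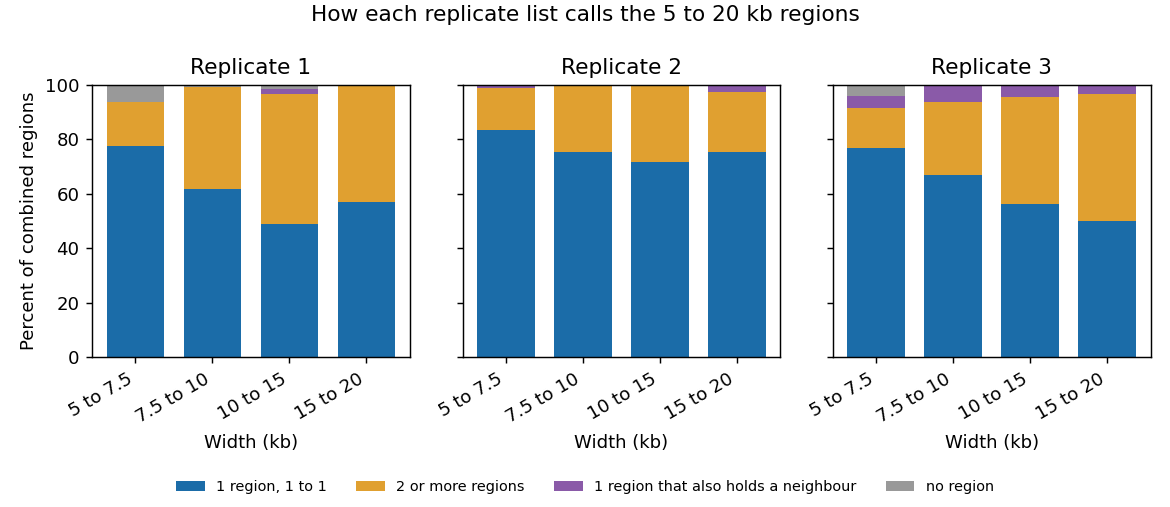
Stacked bars give, for each replicate and 4 width groups in kb, the percent of 5 to 20 kb regions called as 1 region (blue), as 2 or more (yellow), inside a region that also holds a neighbour (purple) or not at all (grey). The yellow share of replicate 1 is 16.1% at 5 to 7.5 kb, 47.7% at 10 to 15 kb and 43.0% at 15 to 20 kb. For the last 2 groups it is 28.0% and 21.9% in replicate 2, and 39.0% and 46.5% in replicate 3. Regions without a call are mostly in the narrowest group.

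The breaks were small and often shared. Most split regions fell into 2 pieces, which was so for 249 of 306 in replicate 1, 184 of 206 in replicate 2 and 213 of 261 in replicate 3. The uncalled stretch inside had a median of 571, 377 and 483 bp in these replicates. In 75 regions all replicates had a break, and in 31 of these (41.3%) at least 1 base was uncalled in all of them. The common uncalled stretch had a median of 284 bp. Between pairs, 80 of the 126 regions split in both replicates 1 and 2 shared a break, as did 101 of 147 for replicates 1 and 3 and 68 of 106 for replicates 2 and 3. At the other end, 523 regions (52.7%) were split in no replicate.

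Replicate calls began and ended close to the edges of the 5 to 20 kb regions. The combined edge was taken as a fixed point and the replicate call was read at set distances from it. Inside the region, 100 bp from the edge, 28.5%, 57.2% and 41.5% of the 1984 edges were called in replicates 1, 2 and 3. At 500 bp inside it was 67.6%, 86.7% and 72.4%, and at 2000 bp inside 84.9%, 95.8% and 90.6%. Outside was read only at the 977 edges that faced a gap of at least 4 kb. There, 100 bp out, 0.921%, 3.99% and 13.8% were called, and 500 bp out 0.102%, 0.409% and 3.38%. Most of the climb in each list lay within 500 bp of the edge, and replicate 3 reached outward more often than the others.

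**Figure D3:**
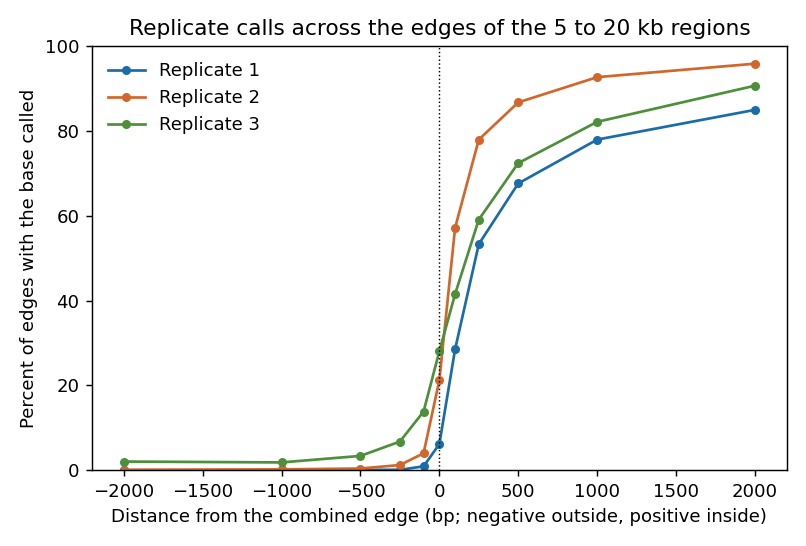
Lines show, for each replicate, the percent of edges at which the base is called, against the distance in bp from the edge of the combined region, with outside at the left. All replicates climb steeply across the edge, replicate 2 is highest inside and replicate 3 is highest outside.

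Edges were compared between replicates, first by pair and then over all 3. Over the 478 regions matched 1 to 1, the median distance between the edges was 156 bp for replicates 1 and 2, 231 bp for replicates 1 and 3 and 192 bp for replicates 2 and 3, a mean of 193 ± 37.5 bp (SD, n = 3 pairs). Left and right edges gave 162 and 151 bp, 227 and 240 bp, and 185 and 199 bp in these pairs, so neither side was the closer in every pair. The distance was within 250 bp for 59.4% ± 6.10 of edges and within 1000 bp for 87.6% ± 2.99 (SD, n = 3 pairs). The pairs share replicates and so are not independent. From the lowest to the highest of the 3 replicates, an edge spread over a median of 322 bp, and 192 of the 956 edges (20.1%) spread over more than 1000 bp. Both edges were within 250 bp in 76 of the 478 regions (15.9%), and at least 1 edge spread over more than 1000 bp in 161 (33.7%). Those 478 were chosen for their simple form. With the outermost edges of all 951 regions called in every replicate, the median distance was 238 ± 51.9 bp (SD, n = 3 pairs).

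Choosing the regions without the combined list gave like values. The same width and position rule was applied to 1 replicate list. Edges were compared between the other lists over regions matched 1 to 1 in both, so the same simple form was required. These were 410, 487 and 469 of the regions chosen in replicates 1, 2 and 3, or 53.6%, 54.4% and 53.3%. Of these, the regions chosen in replicate 1 had a median edge distance of 184 bp between replicates 2 and 3. Those chosen in replicate 2 had 231 bp between replicates 1 and 3, and those chosen in replicate 3 had 159 bp between replicates 1 and 2. The rule found 765, 896 and 880 regions in replicates 1, 2 and 3, and 99.6%, 98.1% and 98.8% of them were overlapped in both other lists. In each replicate, 100% of the chosen regions were also in the combined list, and the same pairs of replicates were compared. These values are therefore not independent of those above.

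Median edge distances were ordered by score. Among the 248 lowest-scoring regions 46 were matched 1 to 1 in all replicates, and their edges differed by a median of 881 ± 367 bp (SD, n = 3 pairs). In the next 248, with scores of 0.675 to 0.900, 101 were matched and the distance was 252 ± 29.5 bp. In the third group, with scores of 0.903 to 1.17, 141 were matched with 189 ± 43.5 bp. Of the 248 highest-scoring regions, 190 were matched, with 138 ± 34.8 bp. By width the medians had no such order, with 201 ± 32.9 bp at 5 to 7.5 kb, 172 ± 35.2 at 7.5 to 10 kb, 204 ± 46.8 at 10 to 15 kb and 164 ± 37.2 at 15 to 20 kb. The matched regions in these 4 groups numbered 269, 97, 74 and 38. Large distances were fewest in the widest group. The 90th percentile was 1319 ± 221, 1058 ± 207, 997 ± 237 and 476 ± 102 bp, and 85.4%, 88.1%, 89.0% and 98.2% of edges were within 1000 bp. The widest group had the lowest 90th percentile in each pair. At 7.5 to 10 and 10 to 15 kb it was 837 and 869 bp for replicates 1 and 2, and 1247 and 1270 bp for replicates 1 and 3. Score also rose with width, and their shares in this were not tested. The share of bases covered moved with score in the same way and was 67.0% ± 17.8 in the lowest group and 95.6% ± 1.77 in the highest (SD, n = 3 replicates). In the same 4 groups, 43.5% ± 4.19, 29.7% ± 11.5, 19.6% ± 6.95 and 11.0% ± 3.83 of regions were split. Whether the combined score and the edges are independent is not given, so these are descriptions, with no test.

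**Figure D4:**
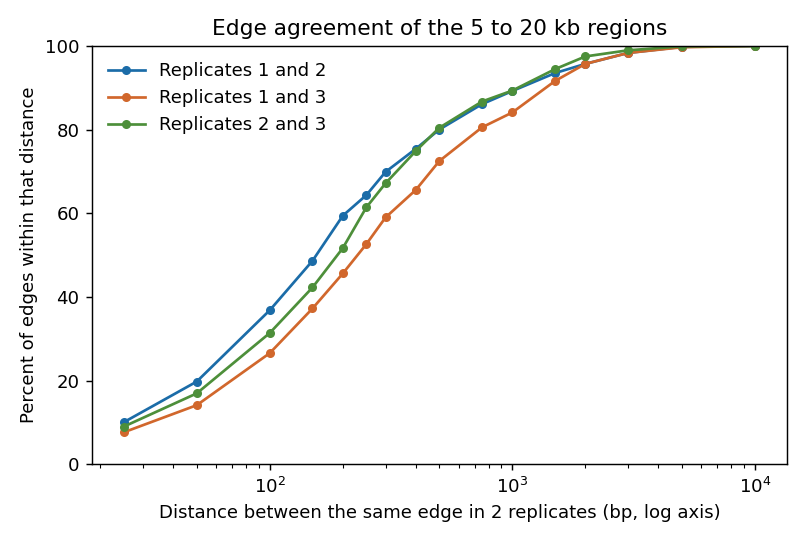
For each pair of replicates, the line gives the percent of the 956 edges (478 regions matched 1 to 1) that lie within the distance in bp shown on the log axis. Replicates 1 and 2 run highest up to 250 bp, with 64.3% of edges within that distance, against 52.6% for replicates 1 and 3.

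Individual regions showed both extremes. The closest edges belonged to the 17 kb region on 3R from 22950292 to 22967337, also among the highest-scoring. Its start was called at 22950358, 22950369 and 22950425 and its end at 22967320, 22967314 and 22967298 in replicates 1, 2 and 3. The starts thus spanned 67 bp and the ends 22 bp. The others of the 5 closest were 3L from 17836808 to 17843771, 2L from 11434960 to 11446151, 3L from 4136206 to 4141708 and 2L from 18449476 to 18454698. Their starts spanned 39 to 78 bp and their ends 45 to 87 bp. On the first of these, 3L from 17836808, replicates 1, 2 and 3 ended at 17842759, 17842737 and 17842782, short of the combined end, and covered 84.5%, 85.2% and 85.8% of it.

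The largest spread, summed over both edges, was on 3L from 7137923 to 7149987, a region of 12065 bp with a score of 0.581. Replicate 1 called only 7145606 to 7147127, or 12.6% of it, while replicates 2 and 3 covered 93.6% and 95.4%. On 3R from 27652466 to 27663140 replicate 1 called a short stretch at the right end, with 17.2% covered, against 90.8% and 83.2% in replicates 2 and 3. On 2L from 15671967 to 15678935 and 2L from 16477343 to 16485817, replicates 1 and 3 called 20.6% and 33.9%, and 15.5% and 25.5%, while replicate 2 covered 96.5% and 78.3%. On 3R from 16391352 to 16396897, replicate 1 called 44.6%, replicate 3 called 26.5% at the left end, and replicate 2 covered 96.6%. In these 5 regions the narrow call was in replicate 1 or in replicates 1 and 3, and the scores of 0.465 to 0.807 were below the median of 0.902.

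Over the 478 matched regions, replicate calls mostly lay inside the combined ones. The replicate edge was inside at 92.5%, 80.8% and 74.4% of edges in replicates 1, 2 and 3 and outside at 7.32%, 17.6% and 25.4%. The median distance inside was 167, 69 and 147 bp. Median widths were 6261, 6667 and 6602 bp in these replicates, against 7076 bp in the combined list.

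The 5 to 20 kb regions typically had a nearer and a much farther neighbour, as did regions of the other width classes. The gap to the nearest region had a median of 1431 bp in the combined list and was under 1 kb for 410 of the 992 (41.3%). The farther of the left and right gaps, the larger by definition, had a median of 10211 bp. That median was 9114 bp under 2 kb, 8652 bp at 2 to 5 kb and 16567 bp at 20 kb and over. At 106 regions (10.7%) the nearest neighbour was at least 10 kb away. In the combined list, the nearest gap of the 5 to 20 kb regions (median 1431 bp) stood beside medians of 1274 bp under 2 kb, 1136 bp at 2 to 5 kb and 1489 bp at 20 kb and over.

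Whether spacing differed with width was asked in the replicate lists, with the rule applied to each. The median nearest gap of 5 to 20 kb regions was 1506, 1789 and 1385 bp in replicates 1, 2 and 3, a mean of 1560 ± 208 bp (SD, n = 3). Regions of 2 to 5 kb had 1570, 1482 and 1432 bp. The difference, 5 to 20 kb minus 2 to 5 kb, was 65.3 ± 209 bp, positive in 1 of 3 replicates (exact two-sided sign-flip permutation p = 1, adjusted p = 1 over 3 comparisons). Regions of 20 kb and over had 1306, 1310 and 1364 bp. The difference from them was 233 ± 231 bp, positive in 3 of 3 replicates (exact sign-flip permutation p = 0.25, the smallest that 3 replicates allow, adjusted p = 0.75). The difference from regions under 2 kb was 25.5 ± 191 bp, positive in 1 of 3 replicates (exact sign-flip permutation p = 1, adjusted p = 1). None of these differences could be told from the spread between replicates. In the combined list the difference from regions of 20 kb and over had the opposite sign, -57.5 bp.

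**Figure D5:**
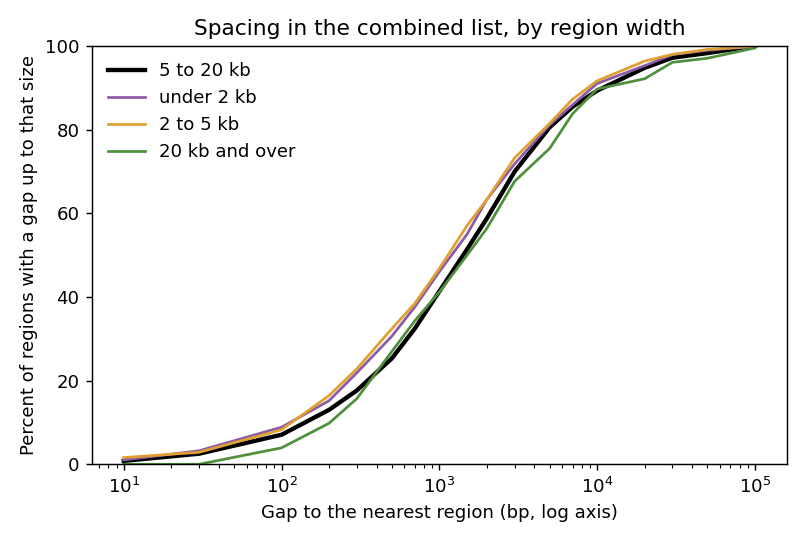
Lines give the percent of combined regions whose nearest gap is at most the size in bp on the log axis, for the 5 to 20 kb regions (black) and the other width classes on the same arms. The 4 lines run close together, and the black one reaches 41.3% at 1 kb.

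Regions with close neighbours had a lower median score and a lower share of 1 to 1 matches, given here without a test. The 251 regions with a nearest gap under 500 bp had a median score of 0.851 and were matched 1 to 1 in all replicates in 37.8% of cases. The 106 regions with a nearest gap of 10 kb and over had a median score of 0.979 and were matched in 60.4%. Regions in between, at 500 bp to 2 kb and at 2 to 10 kb, were matched in 50.3% and 50.2%. The match is tied to the gap by definition, since a region joined to a neighbour is not 1 to 1. At gaps under 500 bp, 1.59%, 3.59% and 13.9% of regions were joined in replicates 1, 2 and 3. Split regions made up 29.2% ± 3.93 there and 17.3% ± 7.33 at 10 kb and over (SD, n = 3 replicates). Spearman's rho between nearest gap and score was 0.147 across the 992. Edges that faced a gap under 500 bp differed by a median of 218 ± 53.3 bp between replicates, and edges that faced 10 kb and over by 176 ± 43.6 bp (SD, n = 3 pairs). The first was the larger in 3 of 3 pairs, which share replicates, and no test was made. Short gaps were sometimes bridged. Of the 238 gaps under 500 bp beside these regions, replicates 1, 2 and 3 spanned 5, 18 and 62, and of the 365 gaps of 500 bp to 2 kb they spanned 0, 1 and 15. None of the 550 gaps of 2 to 10 kb or the 506 wider ones was spanned in any replicate.

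The 5 most isolated regions were called in every replicate. They lay on 3L from 15329316 to 15335867 (score 1.49), 3R from 2633817 to 2642875 (1.35), 2L from 2578239 to 2585830 (0.736), 2L from 14489993 to 14495905 (2.60) and 3L from 15227960 to 15237148 (2.42). Their nearest neighbours were 92.2, 91.9, 80.2, 79.6 and 71.7 kb away. The first and the last face each other across the same gap of 92.2 kb on 3L. Replicates covered a mean of 91.6% to 98.2% of each. The region on 2L from 2578239 was split in replicates 1 and 2, and the other four were single in all.

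The neighbours of the 5 to 20 kb regions came from each width class in about its share of the list. Of the 1980 neighbouring sides, 32.6% held a region of 5 to 20 kb, 23.5% one under 2 kb, 36.5% one of 2 to 5 kb and 7.42% one of 20 kb and over. These classes made up 30.5%, 26.7%, 36.5% and 6.27% of the 3253 regions. No test of this was made. A neighbour of 5 to 20 kb on at least 1 side was found for 549 of the 992 (55.3%). Regions of the other classes had a 5 to 20 kb neighbour in 45.0% of cases under 2 kb, 52.1% at 2 to 5 kb and 58.8% at 20 kb and over. Runs were short. Of the 992, 443 stood between regions of other widths, 320 were in pairs, 135 in runs of 3, 56 in runs of 4, 20 in runs of 5 and 18 in runs of 6. The 3 runs of 6 lay on 2L from 5266651 to 5525923, on 3R from 2920048 to 3019463 and on 3R from 11096207 to 11164174, and the run on 3R from 11096207 packed its 6 regions into 68.0 kb. When gaps under 2 kb were taken to link regions, 409 of the 992 (41.2%) stood alone and 317 (32.0%) belonged to chains of 3 or more.

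Scores of adjacent regions of this class were compared with those of any pair. The median absolute difference in score was 0.327 over 323 adjacent pairs and 0.340 over all pairs of the 992. It was 0.224 for the 38 pairs under 500 bp apart, 0.311 for the 77 pairs at 500 bp to 2 kb, 0.315 for the 106 at 2 to 10 kb and 0.378 for the 102 at 10 kb and over.

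The number of 5 to 20 kb regions varied along the arms. In 68 windows of 1 Mb the number of 5 to 20 kb regions had a median of 14, with 50% of windows between 12 and 17. The extremes, picked after their values were seen, were 28 regions on 3R at 11 to 12 Mb and 3 on 2L at 14 to 15 Mb. In replicates 1, 2 and 3 the same rule gave 16, 22 and 17 regions in the window on 3R and 3, 3 and 5 in that on 2L. The window on 3R held the most regions in replicate 2 only. In replicate 1 the most were 20, on 2L at 0 to 1 Mb, and in replicate 3 they were 24, on 3L at 3 to 4 Mb. The sparse window on 2L held 5 regions of 20 kb and over. Counts of 5 to 20 kb regions and of 2 to 5 kb regions moved together over windows, with Spearman's rho of 0.453, while rho was 0.334 with regions under 2 kb and 0.0750 with those of 20 kb and over. Windows share libraries and neighbours, and no p was computed.

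Between arms the replicate lists held 12.2 ± 0.848 regions per Mb on 3R, 12.0 ± 0.896 on 2L and 12.4 ± 1.40 on 3L (SD, n = 3). The difference 3R minus 2L was 0.234 ± 0.119 per Mb, positive in 3 of 3 replicates (exact two-sided sign-flip permutation p = 0.25, adjusted p = 0.75 over the 3 pairs of arms). The differences 3R minus 3L and 2L minus 3L were -0.165 ± 0.602 and -0.398 ± 0.636, each positive in 1 of 3 replicates (exact sign-flip permutation p = 0.75 and 0.5, adjusted p = 0.75 for both). In the combined list, 3R minus 2L was 0.873 per Mb and 2L minus 3L was -1.21 per Mb. With 3 replicates, no p can be below 0.25. The median edge distance was 195 ± 35.2 bp on 2L, 188 ± 33.3 on 3L and 193 ± 45.6 on 3R (SD, n = 3 pairs).

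Regions of the same width on X, outside its proximal 2 Mb, were measured in the same way. The 992 autosomal regions had a median width of 8010 bp and the 337 regions on X one of 8127 bp. All replicates overlapped 95.9% of the autosomal and 95.3% of the X regions, and matched 48.2% and 45.1% of them 1 to 1. Replicates covered 86.4% ± 6.22 of the autosomal and 84.5% ± 7.49 of the X bases (SD, n = 3). The difference, autosomal minus X, was 1.67, -0.0702 and 4.06 percentage points in replicates 1, 2 and 3. Its mean was 1.89 ± 2.07 (exact two-sided sign-flip permutation p = 0.5). With 3 replicates this p cannot fall below 0.25, so the test could not separate any difference from 0 and shows no likeness. The median edge distance was 193 ± 37.5 bp on the autosomal arms and 198 ± 32.3 bp on X (SD, n = 3 pairs).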

How the data were processed

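The series measured ubiquitylated histone H2B by ChIP-seq in 3 ChIP samples, each with an input of the same replicate number. Lists are analysed here for the ChIP samples and for the whole series (the combined list), and none for the inputs. The authors deposited regions with a start, an end and a score. The aligner was Bowtie 0.12.7, as named in the submitters' processing notes, and coordinates are on FlyBase release 5, per the file headers. The region caller, its threshold, the definition of the score and how the combined list was built were not given in the sources used here.

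Regions were read in Python 3.11.15 with numpy 2.4.6, pandas 2.3.3 and scipy 1.17.1. An overlap of 1 bp counted as shared. A gap is the number of uncalled bases between consecutive regions of a list. A match was called 1 to 1 when 1 replicate region overlapped a combined region and no other. Edges were compared between replicates over such matches. Spacing and density were compared over the 3 replicates by exact permutation of signs, two-sided. The functions were tested on simulated lists. Read depth is unknown, so no counting interval was computed.

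The regions and all measures were chosen with earlier results of these data known. The regions named individually are the 5 with the highest and the 5 with the lowest score, the 5 farthest from a neighbour, the 5 with the smallest and the 5 with the largest edge spread over replicates, those in no replicate, and those next to the width limits. The extreme 1 Mb windows and the runs were named with their values known. The alternatives were leaving out each replicate, the higher-scoring 50% of each list, 50% reciprocal overlap, widths of 6 to 15 kb, other proximal windows, merging, choosing regions in 1 replicate list and a common minimum width. Measuring spacing and density in the combined list, and the outermost edges of every region called in all replicates, were added after seeing the data. The gene table at hand is on release 6, so no region was placed in a gene and no sequence is shown.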

Additional observations from a re-analysis of the deposited data

How the results depend on the processing

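No paired analysis was possible because no input list is analysed here to set against its ChIP list. The gap, density and X tests take differences within each replicate list. Over 12 results, 85 of 115 alternative values kept the reported result. For shares of regions this means within the 95% exact binomial interval, which treats regions as independent although they share libraries. For base coverage and the nearest gap it means within 1 SD of the replicates. For edge distance it means within 1 SD of the pairs, which share replicates. For counts it means within 1.5 times the count. For the gap and density differences it means only that the sign was kept, since 3 replicates cannot give a p below 0.25. The number of regions did so under every alternative that applied, from 677 to 1052.

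The share overlapped in all replicates was 75.2% with the higher-scoring 50% of each list. It was 69.1% with 50% reciprocal overlap and 94.2% after merging regions under 1000 bp apart. When regions were chosen in 1 replicate list, a mean of 98.8% were overlapped in both other lists, an easier demand. The share matched 1 to 1 was 63.6%, 65.6%, 60.8% and 53.7% under the same alternatives, the last again over both other lists only. With 50% reciprocal overlap, pieces that fell short of it were not counted, so a split region could pass as 1 to 1. With the higher-scoring 50%, 78.4% of bases were covered. The edge distance was 238 bp for the outermost edges of regions called in all replicates. The nearest gap was 3815 bp with the higher-scoring 50% and 2911 bp after merging. Merging removes every gap under 1000 bp, and the higher-scoring 50% leaves fewer regions. What widened the gap was not tested further. The share with a neighbour of the same class was 77.5% with the higher-scoring 50%, 38.0% at 6 to 15 kb, 65.5% after merging, 52.1% in 1 replicate list and 60.1% with a common minimum width.

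The gap difference from 2 to 5 kb regions was 169 bp at 6 to 15 kb and 295 bp in the combined list, and turned to -309 bp with the higher-scoring 50% and -96 bp after merging. That from regions of 20 kb and over turned to -446 bp, -155 bp and, in the combined list, -57.5 bp. With whole arms, 3R minus 3L was 0.787 per Mb and 2L minus 3L was 0.0280. Several density differences kept their sign and moved by over 1.5 times. For 3R minus 2L the values were 0.759 with whole arms, 0.768 without the proximal 4 Mb and 0.873 in the combined list. For 2L minus 3L they were -0.852 without the proximal 4 Mb and -1.21 in the combined list. For 3R minus 3L they were -0.377 with the higher-scoring 50%, -0.387 after merging, -0.334 in the combined list and -0.0836 without the proximal 4 Mb. The cause was not tested.

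Without 1 replicate, the results ranged as follows. Overlap in all was 95.9% to 98.1%, coverage 83.1% to 89.3%, 1 to 1 matches 51.1% to 58.8% and edge distance 163 to 238 bp. Overlap in all and 1 to 1 matches can only stay or rise when a list is left out. The gap differences were -55.5 to 130 bp from 2 to 5 kb regions, negative without replicate 2, and 110 to 339.8 bp from those of 20 kb and over. Density differences were -0.452 to 0.148 per Mb for 3R minus 3L, positive without replicate 2, 0.192 to 0.302 for 3R minus 2L and -0.659 to -0.0439 for 2L minus 3L. Leaving out a replicate does not apply to results of the combined list alone. Depth is unknown, so uncalled bases were not shown to lack the mark.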
